A study of Mus musculus with 16 samples.

Results

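Macrophages and other phagocytes of the injured kidney were followed through 35 genes, chosen by name from a list of phagocyte genes and matched to the deposited gene table by Ensembl ID. The list was chosen with earlier results of these data known. All 35 were found among the 40472 genes of the table. RNA with a poly(A) tail was sequenced from the kidney of male C57BL/6 mice aged 12 weeks. Uninjured mice received vehicle (NV) or PJ34 (NP), which blocks the poly(ADP-ribose) polymerase enzymes (PARP), and mice with ischemia reperfusion injury, in which the blood supply of the kidney is stopped and restored, received vehicle (IRV) or PJ34 (IRP). Each of the 4 groups had 4 libraries. The labels number these as replicates without saying that they came from separate animals, so the p-values speak for the spread among these libraries alone, which may be technical. The labels give neither the day of tissue collection nor a dose. The submitters' design text names the later effect of PJ34 after the injury as the question.

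Macrophages settle in the kidney before birth, live between the tubules and depend on the growth factor receptor CSF1R. After ischemia, monocytes enter from the blood by way of the chemokine receptor CCR2, clear dead tubule cells and turn into macrophages, some of which take on a lipid-handling, repair-associated state marked by TREM2 and GPNMB. The transcription factor PU.1, the product of Spi1, sets up the myeloid programme by binding a purine-rich DNA core. Phagocytosis runs through surface receptors that signal by way of the adaptors TYROBP and FCER1G, and engulfed material meets superoxide made by the oxidase of CYBB and CYBA.

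The PU.1 core, searched as GAGGAA and as its reverse complement TTCCTC, was counted in the promoters of the genes, since Spi1 is among them. In RefSeq's promoter table (build GRCm38.p6, an older build than that of the counts) 27 of the 35 genes were found, and 10 of these 27 (37%) held the core within the 100 bases before the start site. Of all 27025 genes in that table, 3029 (11.2%) did. Within 250 bases the counts were 12 of 27 (44.4%) and 6986 of 27025 (25.9%). The 10 genes were Aif1, Cd300c2, Cd53, Clec7a, Fcgr1, Fcgr3, Itgam, Laptm5, Mrc1 and Trem2. A match is a description of the letters and not a measured binding site. Other forms of the PU.1 site were not searched, so a gene without a match may still hold one. The 100 bases before the start site are shown for 8 of the 10 genes, 5′ to 3′ on the gene's own strand with the match in capitals. They are also shown for Fcgr2b, which held neither searched word there and was not called in either injury comparison.
Itgam, chr7:128062540-128062639, plus strand: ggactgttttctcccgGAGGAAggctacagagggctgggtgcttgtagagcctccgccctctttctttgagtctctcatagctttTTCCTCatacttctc
Mrc1, chr2:14229314-14229413, plus strand: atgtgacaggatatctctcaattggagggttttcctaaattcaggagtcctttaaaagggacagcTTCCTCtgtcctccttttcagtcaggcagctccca
Aif1, chr17:35176053-35176152, minus strand: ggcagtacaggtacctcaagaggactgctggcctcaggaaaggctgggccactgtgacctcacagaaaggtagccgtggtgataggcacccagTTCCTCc
Trem2, chr17:48346301-48346400, plus strand: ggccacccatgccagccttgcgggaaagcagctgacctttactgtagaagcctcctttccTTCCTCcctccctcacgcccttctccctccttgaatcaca
Fcgr3, chr1:171059404-171059503, minus strand: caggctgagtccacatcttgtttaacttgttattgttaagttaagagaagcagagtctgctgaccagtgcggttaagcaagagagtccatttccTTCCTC
Clec7a, chr6:129472780-129472879, minus strand: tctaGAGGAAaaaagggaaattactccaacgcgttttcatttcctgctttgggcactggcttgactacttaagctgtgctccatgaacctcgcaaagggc
Laptm5, chr4:130913216-130913315, plus strand: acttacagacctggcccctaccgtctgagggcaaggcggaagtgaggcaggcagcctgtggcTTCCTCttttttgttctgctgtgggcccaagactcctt
Cd53, chr3:106790150-106790249, minus strand: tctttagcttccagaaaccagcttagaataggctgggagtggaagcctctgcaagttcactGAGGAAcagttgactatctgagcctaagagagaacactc
Fcgr2b, chr1:170976072-170976171, minus strand: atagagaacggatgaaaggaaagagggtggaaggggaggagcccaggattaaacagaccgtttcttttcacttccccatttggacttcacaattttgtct
Itgam held the core in both orientations, and the other 7 held it 1 time each. The core in Aif1 and in Fcgr3 lay next to the start site. Fcgr1 held the core as well and was, like Fcgr2b, not called. Most of the 27 genes had no match to the searched core within 100 bases. Among those, Apoe and Cd68, which held it within 250 bases only, were called higher in both injury comparisons. Whether the core goes with a call was not tested.

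Counts were scaled to CPM, counts relative to the TMM-scaled size of their library, and the 4 groups were compared with edgeR's quasi-likelihood test, with p-values adjusted by Benjamini-Hochberg over all 13614 genes that passed the filter on low counts and called under 0.05. Log2 differences are given ± SE. Of the 35 genes 34 passed the filter and Trem2 did not. In NV only 12 of the 35 reached a mean of 10 counts, and in NP 15, against 35 in IRV and 35 in IRP, so many passed the filter through the injured groups. Total counts ran from 4963638 to 6169748 in 6 deep libraries, namely IRP replicates 1 to 4 with IRV replicates 3 and 4. They ran from 973812 to 1659983 in 10 shallow ones, made up of the 8 uninjured libraries with IRV replicates 1 and 2. The sum of the genes for smell, taste, vomeronasal and trace-amine receptors, which kidney cells mostly do not use, was 246 to 519 CPM in deep libraries and 6439 to 11377 CPM in shallow ones. The median receptor gene had a mean of 2.63 CPM in NV, 2.59 CPM in NP, 1.29 CPM in IRV and 0.113 CPM in IRP. Among the receptor genes that passed the filter the median was 9.9 CPM in NV, and 24 of the 35 phagocyte genes had an NV mean at or under it. Under the 90th percentile of these filtered receptor genes lay 30 of the 35 in NV and 30 in NP, against 10 in IRV and 0 in IRP. Of the 35 phagocyte genes, 9 had an NV mean and 6 an NP mean under the median of all receptor genes, and 0 had so in IRV or IRP. The part of depth in the results was not tested beyond the fits with the library set given below. The 10 kidney markers checked, among them Umod and Lrp2, were detected in every group, and summed to 18451 to 19176 CPM in NV, 16782 to 22562 in NP, 9844 to 13783 in IRV and 8912 to 18758 in IRP.

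Most of the genes were higher after ischemia reperfusion, with vehicle and with PJ34. In IRV against NV, 27 of the 34 tested genes were higher and 0 lower, while 15.9% of all genes tested were called higher and 11.1% lower. Many of the 34 passed the filter through the injured groups, and the list was chosen with earlier results known. The shares of all genes are therefore given for scale and are not a test of the list. Beside the 0, 2 of the 34, Cd163 and Cyba, were lower at an unadjusted p under 0.05, and DESeq2 called 2 lower (11.5% of all genes). The median log2 difference was 2.48 over the 34 genes and -0.03 over all genes tested. In 29 of the 34 all 4 IRV libraries lay above all 4 NV libraries, which held for 15.1% of all genes. In Cd163 and Cyba they all lay below, which held for 11.9%. In IRP against NP, 27 were higher and 1, Cd163, lower, where 19.6% and 24.0% of all genes were called, and the median was 2.17 against -0.01 over all genes. The groups did not overlap in 26 genes that were higher and 1 that was lower, against 19.6% and 21.2% of all genes. The same 27 genes were higher in both comparisons, which share no libraries but come from 1 fit. Of all genes tested, the share higher in both was not counted, and it cannot exceed 15.9%. In both comparisons the uninjured libraries were all shallow and the injured group held deep ones. Beside the phagocyte genes, 4 of the 10 kidney markers were lower and 2 higher in each comparison. Slc34a1, the phosphate transporter of the proximal tubule, differed by -1.11 and -0.91, and Lrp2 and Cubn, the receptors that take up filtered protein there, by -0.95 and -1.04 under vehicle and -0.95 and -0.93 under PJ34. The part of these tubule genes in the differences was not tested. In whole kidney, more cells of a type and more RNA per cell cannot be told apart.

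With the library set as a covariate, 25 of the 34 genes were higher in IRV than in NV, where 7.93% of all genes were called higher and 6.13% lower, and the median was 2.29. Within the shallow libraries alone, IRV replicates 1 and 2 against NV, 22 of 31 tested genes were higher (6.49% of all genes, with 6.83% lower), with a median of 2.17. IRP and NP have no library set in common, so that the set is estimated from the IRV libraries, and the covariate left 11 of 34 higher (2.52% of all genes) and 0 lower (0.786% of all genes), with a median of 1.85 and 32 of 34 differences above 0.

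**Figure D1:**
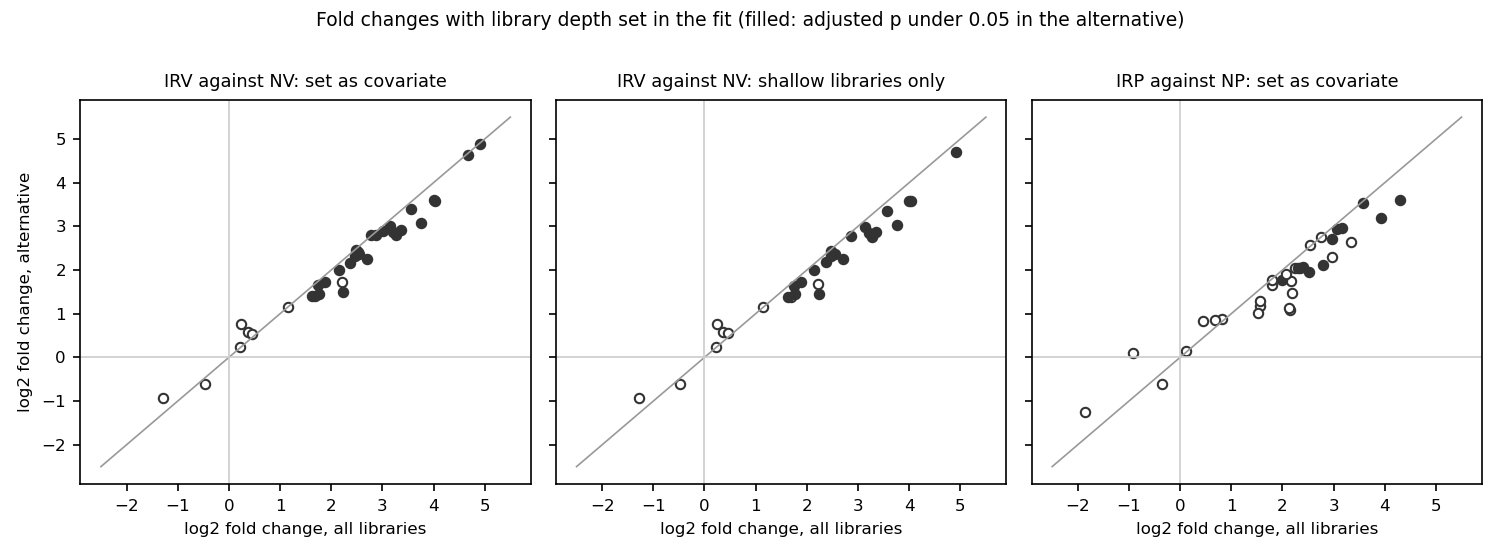
Log2 difference of each tested phagocyte gene from all libraries (x axis) against its value when depth is in the fit (y axis), with the line of equal values; filled points have an adjusted p under 0.05 in the fit on the y axis. From left to right, IRV against NV with the set as a covariate has 25 filled points, IRV against NV in the shallow libraries 22, and IRP against NP with the set as a covariate 11, while most open points there still lie above 0.

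**Figure D2:**
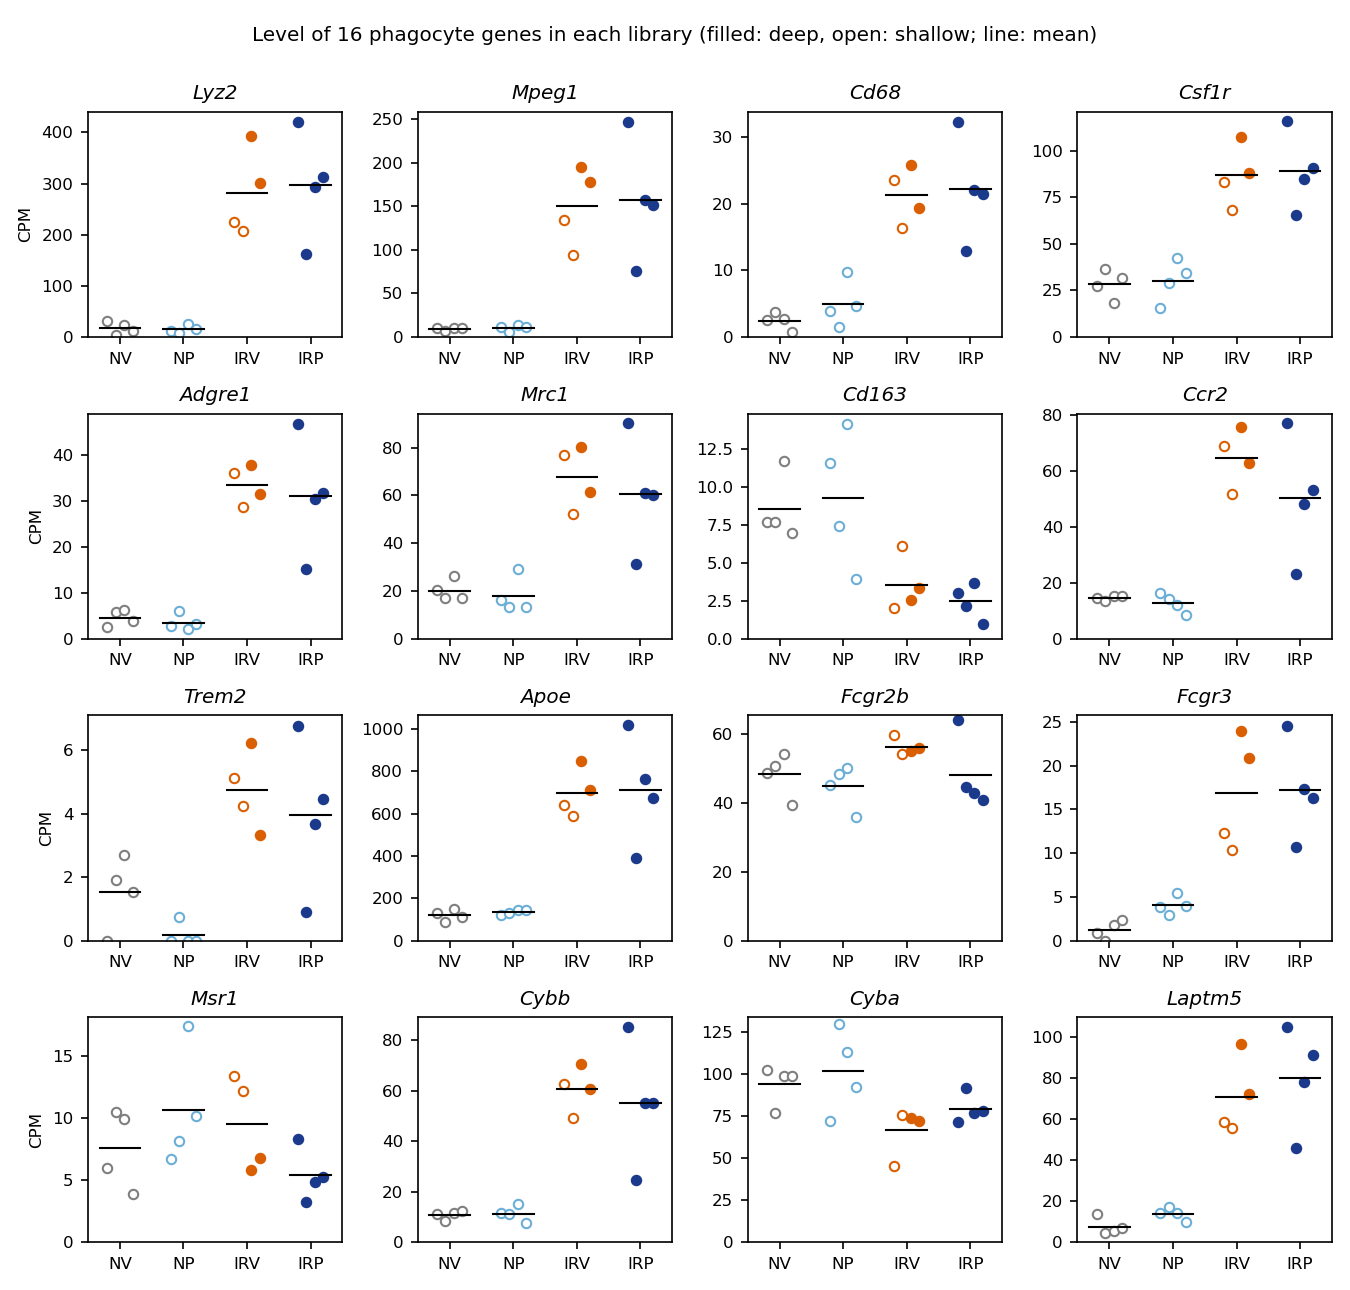
CPM (y axis, from 0) of 16 of the phagocyte genes in every library, 1 panel per gene, with the 4 groups on the x axis; points are libraries, filled where deep and open where shallow, and the line is the group mean. The IRV and IRP points of Mpeg1 and Lyz2 lie above all NV and NP points, while those of Msr1 lie among them. The Cd163 points of IRV lie below those of NV, and those of IRP below those of NP.

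**Figure D3:**
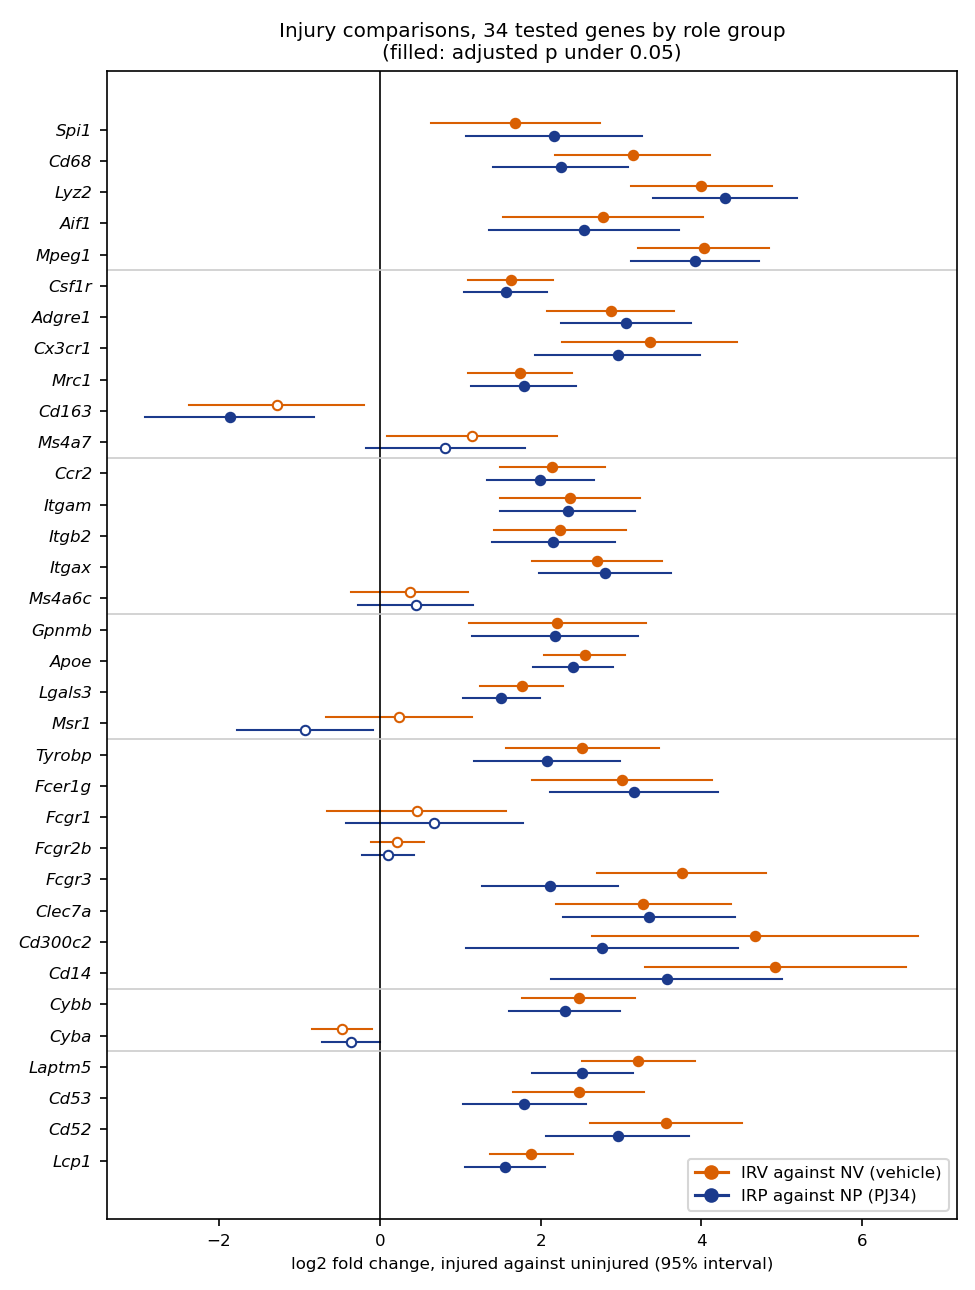
Log2 difference of each of the 34 tested genes between injured and uninjured kidney, under vehicle (IRV against NV) and under PJ34 (IRP against NP), with 95% intervals from the edgeR fit; filled points have an adjusted p under 0.05. The same 27 genes are higher in both comparisons; Cd163 and Cyba lie to the left of 0 in both, and Cyba turns to the right with library totals as the only scaling.

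Genes of the myeloid lineage and its lysosome rose in all 5 cases in both comparisons, with medians of 3.14 and 2.54. Mpeg1, which encodes the pore-forming protein perforin-2 of macrophages, stood at 10.3, 6.69, 9.9 and 10.04 CPM in NV replicates 1 to 4 and at 134, 93.6, 195 and 178 CPM in IRV. Under PJ34 its levels were 11.5, 5.21, 14.1 and 11.7 CPM in NP and 246, 75.7, 157 and 151 CPM in IRP. Every injured library was above every uninjured one, and the difference was 16.3-fold in IRV against NV (4.03 ± 0.39, adjusted p = 5.5e-06) and 15.2-fold in IRP against NP (3.92 ± 0.38, adjusted p = 6.6e-06). Lyz2, the lysozyme of macrophages, whose reads can be shared with its near copy Lyz1, had 30.8, 3.83, 23.4 and 12.4 CPM in NV and 224, 207, 393 and 302 CPM in IRV. It had 12.5, 8.18, 26.1 and 15.6 CPM in NP and 419.6, 162, 294 and 312 CPM in IRP, and differed by 4.0 ± 0.42 and 4.30 ± 0.43. Cd68, a lysosomal membrane protein widely used to stain macrophages, went from 2.56, 3.83, 2.7 and 0.772 CPM in NV to 23.6, 16.4, 25.8 and 19.4 CPM in IRV. It went from 3.84, 1.49, 9.79 and 4.69 CPM in NP to 32.3, 12.9, 22.03 and 21.6 CPM in IRP, and in both pairs the groups were apart, by 3.14 ± 0.46 and 2.25 ± 0.40. The spread of Cd68 in NP was wide, with replicate 3 at the top. Aif1, which encodes the actin-binding marker IBA1, was near the detection limit without injury, at 0.855, 0.956, 0.9 and 1.54 CPM in NV and 1.92, 0, 1.09 and 2.34 CPM in NP. In injured kidney it had 4.11, 10.3, 9.37 and 6.01 CPM in IRV and 9.55, 4.17, 7.93 and 9.58 CPM in IRP, all above the uninjured libraries. Spi1 itself, the gene of PU.1, went from 3.08 ± 1.88 to 9.64 ± 3.25 CPM (mean ± SD, n = 4) under vehicle, by 1.68 ± 0.50 (adjusted p = 0.019). Under PJ34 it went from 2.32 ± 1.49 to 9.97 ± 4.47 CPM, by 2.16 ± 0.52, and there the highest NP and the lowest IRP library both stood at 4.35 CPM. Mpeg1 and Lyz2 were called in IRP against NP with the library set in the fit, and Cd68, Aif1 and Spi1 were not (adjusted p = 0.064, 0.082 and 0.26). Spi1 was the gene of this group whose call in IRV against NV was lost with the library set as a covariate (1.40, adjusted p = 0.18), and it was lost without IRV replicate 3, NV replicate 1 or NV replicate 3 (adjusted p = 0.091, 0.066 and 0.065).

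Of the 6 genes grouped as resident-type, 4 rose in both comparisons, with medians of 1.69 and 1.68 over the 6. Ms4a7 was not called, and Cd163 went the other way (-1.28 and -1.87), as given below. In whole kidney these genes cannot tell resident macrophages from those formed by entering monocytes. Adgre1, which encodes the F4/80 antigen, stood at 2.56, 5.74, 6.3 and 3.86 CPM in NV and 35.98, 28.6, 37.8 and 31.6 CPM in IRV, a 7.31-fold difference (adjusted p = 5.2e-05). It stood at 2.88, 5.95, 2.17 and 3.12 CPM in NP and 46.8, 15.2, 30.4 and 31.6 CPM in IRP, 8.39-fold (adjusted p = 3.3e-05). Neither pair of groups overlapped, and IRP replicate 2 was the lowest injured library. Cx3cr1, the fractalkine receptor, had 2.56, 4.78, 2.7 and 3.09 CPM in NV and 21.6, 27.4, 46.01 and 33.8 CPM in IRV. Under PJ34 it had 7.69, 1.49, 2.17 and 5.47 CPM in NP and 53.2, 13.04, 29.2 and 34.2 CPM in IRP, with the same separation and differences of 3.36 ± 0.52 and 2.96 ± 0.49. Csf1r, the receptor for the survival factors CSF1 and IL-34, was present without injury, at 27.4, 36.3, 18.01 and 31.7 CPM in NV and 15.4, 29.01, 42.4 and 34.4 CPM in NP. It had 83.3, 68.1, 107 and 88.1 CPM in IRV and 116, 65.6, 84.9 and 90.9 CPM in IRP, a difference of 3.09-fold and 2.96-fold. Mrc1, the mannose receptor, had 20.5, 17.2, 26.1 and 16.99 CPM in NV and 77.1, 52.3, 80.1 and 61.4 CPM in IRV. It had 16.3, 13.4, 29.4 and 13.3 CPM in NP and 90.4, 31.2, 60.9 and 60.2 CPM in IRP, so that the lowest injured library, IRP replicate 2, stood just above the highest uninjured one, NP replicate 3. With the library set in the fit 1 of the 6, Adgre1, was called higher in IRP against NP, with Csf1r at 1.19, Cx3cr1 at 2.29 and Mrc1 at 1.65 (adjusted p = 0.081, 0.082 and 0.065). Without that term the differences of Mrc1 were 1.75 ± 0.31 and 1.79 ± 0.31.

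Cd163, the scavenger receptor that takes up haemoglobin bound to haptoglobin, was lower in the injured groups. It had 7.69, 7.65, 11.7 and 6.95 CPM in NV and 2.06, 6.08, 2.56 and 3.33 CPM in IRV, and the groups did not overlap, but the difference of -1.28 ± 0.51 missed the threshold (adjusted p = 0.074). It had 11.5, 7.44, 14.1 and 3.9 CPM in NP and 3.02, 2.17, 3.67 and 0.958 CPM in IRP, again without overlap, and fell by 1.87 on the log2 scale (SE 0.50, adjusted p = 0.0061). With the library set as a covariate the difference was not called under vehicle (-0.93, adjusted p = 0.37) or under PJ34 (-1.25, adjusted p = 0.44). In the shallow libraries alone it was -0.92 under vehicle (adjusted p = 0.37). Without IRV replicate 2, the highest IRV library, the difference under vehicle was -1.68 (adjusted p = 0.029), and it passed without IRP replicate 4 or NP replicate 4 as well (adjusted p = 0.047 and 0.05). These were 3 of the 16 fits that each left out 1 library. Ms4a7, a membrane protein of macrophages, ranged over 3.09 to 8.61 CPM in NV and 9.72 to 13.4 CPM in IRV without overlap, and its difference of 1.15 ± 0.50 did not pass (adjusted p = 0.1). In IRP against NP it was 0.82 ± 0.47 (adjusted p = 0.17), with groups that overlapped, and without IRP replicate 2 it passed in both comparisons (adjusted p = 0.044 and 0.032).

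Genes grouped as infiltrating monocyte-type rose in 4 of 5 cases in both comparisons, with medians of 2.24 and 2.16. Itgax, the integrin chain CD11c, had 4.27, 4.78, 3.6 and 5.41 CPM in NV and 23.6, 20.7, 39.3 and 30.9 CPM in IRV. It had 6.73, 5.21, 2.17 and 1.56 CPM in NP and 37.3, 14.5, 29.8 and 28.1 CPM in IRP, with no overlap in either pair, and rose 6.52-fold and 6.96-fold (adjusted p = 0.0001 and 7.6e-05). Ccr2, the receptor by which monocytes leave the marrow and follow CCL2, was tightly grouped in NV, at 14.5, 13.4, 15.3 and 15.4 CPM, and stood at 68.9, 51.7, 75.7 and 62.8 CPM in IRV. Under PJ34 it had 16.3, 14.1, 11.96 and 8.59 CPM in NP and 77.1, 23.2, 48.2 and 53.3 CPM in IRP, where replicate 2 was well below the other 3. The differences were 2.14 ± 0.31 and 2.00 ± 0.32. Itgb2, the shared beta chain of the leukocyte integrins, had 5.13, 9.56, 4.5 and 5.41 CPM in NV and 12.3, 20.7, 43.03 and 30.3 CPM in IRV. IRV replicates 1 and 2 were the lower ones here, and they are the shallow ones. In NP it had 10.6, 4.46, 6.52 and 9.37 CPM and in IRP 44.8, 22.5, 35.1 and 34.3 CPM, and it rose by 2.24 ± 0.39 and 2.16 ± 0.36. Itgb2 differed by 1.08 in IRP against NP with the library set in the fit, which was not called (adjusted p = 0.24), and that fit left 2 of the 5 genes, Ccr2 and Itgax, called there. Itgam, the alpha chain CD11b that pairs with it, had 6.84, 3.83, 5.4 and 3.86 CPM in NV and 30.8, 16.4, 32.2 and 23.5 CPM in IRV. It had 5.77, 5.21, 7.61 and 3.12 CPM in NP and 43.3, 12.5, 24.7 and 26.2 CPM in IRP, with every injured library above every uninjured one and differences of 2.37 ± 0.41 and 2.34 ± 0.40. Ms4a6c, a member of a family of similar membrane proteins among which reads can be shared, was not called. It ranged over 7.2 to 16.3 CPM in NV, 12.02 to 18.5 in IRV, 4.46 to 11.96 in NP and 7.25 to 18.97 in IRP, with differences of 0.37 ± 0.34 and 0.45 ± 0.34 (adjusted p = 0.44 and 0.31).

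Among the 5 lipid-associated or repair-type genes, 3 of the 4 tested rose in both comparisons, with medians of 1.99 and 1.85. Apoe, the lipid carrier apolipoprotein E, which tubule cells can make too, had 128, 87.03, 149 and 114 CPM in NV and 641, 591, 848 and 713 CPM in IRV. It had 119, 132, 146 and 143 CPM in NP and 1018, 392, 766 and 676 CPM in IRP. The groups were far apart, by 5.86-fold (adjusted p = 5.5e-06) and 5.29-fold (adjusted p = 6.8e-06). Lgals3, the carbohydrate-binding protein galectin-3, had 14.5, 11.5, 10.8 and 11.6 CPM in NV and 29.8, 35.9, 49.4 and 44.4 CPM in IRV. It had 20.2, 17.1, 6.52 and 19.5 CPM in NP and 52.8, 35.9, 45.1 and 50.9 CPM in IRP, and its rises of 1.77 ± 0.25 and 1.51 ± 0.23 were among the smaller ones called. Gpnmb, a glycoprotein of lipid-laden macrophages, had 4.27, 2.87, 2.7 and 3.09 CPM in NV and 7.2, 13.4, 23.6 and 12.5 CPM in IRV, where replicate 1 was lowest and replicate 3 highest. It had 2.88, 4.46, 9.79 and 0 CPM in NP, a wide spread that includes a library without a count, and 22.7, 15.9, 20.6 and 13.6 CPM in IRP. Gpnmb differed by 2.21 ± 0.52 and 2.18 ± 0.49, and its call in IRV against NV was lost with the library set as a covariate (1.73, adjusted p = 0.082). That fit left 1 of the 4, Apoe, called in IRP against NP, with Gpnmb at 1.47 (adjusted p = 0.29) and Lgals3 at 1.02 (adjusted p = 0.1).

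Trem2, the lipid-sensing receptor of that state, was too low for the filter. It had 0, 1.91, 2.7 and 1.54 CPM in NV and 5.14, 4.25, 6.25 and 3.33 CPM in IRV, with every IRV library above every NV library. It had 0, 0.744, 0 and 0 CPM in NP and 6.77, 0.906, 3.67 and 4.47 CPM in IRP, where replicate 2 held far less than the other 3. Fitted without a filter it differed by 1.92 ± 0.73 in IRV against NV, which did not pass (adjusted p = 0.095). In IRP against NP the fit without a filter gave 4.37 ± 0.99 (adjusted p = 0.0011), where it called 14.3% of all genes higher and 27.0% lower. That difference rests on 114 counts against 1, a ratio of levels of 19.5 with a 95% interval of 3.42 to 775, which covers counting error only. Msr1, the class A scavenger receptor, was not called. It ranged over 3.86 to 10.5 CPM in NV and 5.82 to 13.4 CPM in IRV, a difference of 0.24 ± 0.43 (adjusted p = 0.71). It ranged over 6.73 to 17.4 CPM in NP and 3.26 to 8.34 CPM in IRP, a difference of -0.93 ± 0.40 that missed the threshold (adjusted p = 0.071). That difference passed in 5 of 16 fits that each left out 1 library, with values from -1.21 to -0.70 over the 16, and with the library set in the fit the difference was 0.10.

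Of the 8 phagocytic receptors and adaptors, 6 rose in both comparisons, with medians of 3.14 and 2.44 over the 8. Fcgr3, the activating Fc receptor FcγRIII, had 0.855, 0, 1.8 and 2.32 CPM in NV and 12.3, 10.3, 24 and 20.8 CPM in IRV, where the deep replicates 3 and 4 were above the shallow ones. It had 3.84, 2.98, 5.44 and 3.9 CPM in NP and 24.5, 10.7, 17.3 and 16.3 CPM in IRP. It rose 13.5-fold under vehicle (adjusted p = 6.2e-05) and 4.34-fold under PJ34 (adjusted p = 0.00061). The injured means were close, at 16.9 CPM in IRV and 17.2 CPM in IRP. The uninjured levels rest on few counts, 1, 0, 2 and 3 in NV and 4, 4, 5 and 5 in NP. The difference under PJ34 was 1.13 with the library set in the fit and not called (adjusted p = 0.29). Cd14, the co-receptor for lipopolysaccharide, was at 0 in 3 NV libraries and stood at 0, 0, 1.8 and 0 CPM in NV replicates 1 to 4, against 15.4, 12.8, 14.8 and 13.9 CPM in IRV. These are 249 counts against 2, a ratio of levels of 32.9 with a 95% counting interval of 9.02 to 273. Cd14 had 0.961, 0, 1.09 and 1.56 CPM in NP and 19.1, 4.17, 9.69 and 9.9 CPM in IRP, a difference of 3.57 ± 0.68. Clec7a, the fungal glucan receptor dectin-1, had 5.13, 0.956, 3.6 and 1.54 CPM in NV and 15.4, 23.1, 36.1 and 29.8 CPM in IRV. It had 4.8, 2.23, 3.26 and 1.56 CPM in NP and 50.1, 13.6, 28.2 and 24.7 CPM in IRP, and neither pair overlapped (3.27 ± 0.52 and 3.35 ± 0.51). Fcer1g, the signalling chain of the activating Fc receptors, had 1.71, 0.956, 0.9 and 2.32 CPM in NV and 6.17, 15.2, 13.1 and 13.4 CPM in IRV. It had 2.88, 0.744, 0 and 3.12 CPM in NP and 23.7, 9.24, 16.4 and 13.7 CPM in IRP, again apart (3.01 ± 0.53 and 3.16 ± 0.50). Tyrobp, the adaptor DAP12 that serves TREM2, went from 2.4 ± 1.8 to 13.6 ± 1.65 CPM and from 2.95 ± 2.1 to 12.2 ± 3.59 CPM, by 2.52 ± 0.45 and 2.08 ± 0.43. Cd300c2, a member of a family of paired receptors with similar sequences, had 110 counts in IRV against 1 in NV, a ratio of 29.1 (95% counting interval 5.11 to 1160), and 132 in IRP against 3 in NP, a ratio of 7.51 (2.51 to 36.9). The NV counts of Cd14 came from replicate 3 and that of Cd300c2 from replicate 4, and without that library NV had no count and the fitted log2 difference went from 4.92 ± 0.77 to 8.64 for Cd14 and from 4.67 ± 0.96 to 7.48 for Cd300c2, values that against an empty group are no bound, so that the size of either rise rests on 1 library. With the library set in the fit 2 of the 8, Fcer1g and Cd14, were called in IRP against NP.

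Of the 3 Fc receptors, Fcgr3 rose and Fcgr2b and Fcgr1 were not called. Fcgr2b, the inhibitory receptor FcγRIIB, which endothelial and B cells express too, ranged over 39.4 to 54.02 CPM in NV and 54.1 to 59.6 CPM in IRV, with the lowest IRV library just above the highest NV one and a difference of 0.22 ± 0.15 (adjusted p = 0.31). It ranged over 35.9 to 50.02 CPM in NP and 40.7 to 63.9 CPM in IRP (0.11 ± 0.15, adjusted p = 0.6). Fcgr1, the high-affinity receptor FcγRI, had 1.71, 9.56, 1.8 and 8.49 CPM in NV, a wide spread, and 5.47 to 11.3 CPM in IRV. Its differences of 0.46 ± 0.53 and 0.68 ± 0.52 did not pass (adjusted p = 0.54 and 0.31), with 95% intervals of -0.66 to 1.57 and -0.42 to 1.78. Reads of Fcgr2b and Fcgr3, which are alike in part of their sequence, can be shared by the counting tool.

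Of the 2 membrane subunits of the phagocyte oxidase, Cybb rose in both comparisons and Cyba was not called. Cybb, its catalytic subunit gp91phox, had 11.1, 8.61, 11.7 and 12.4 CPM in NV and 62.7, 49.2, 70.6 and 60.9 CPM in IRV. It had 11.5, 11.2, 15.2 and 7.81 CPM in NP and 85.3, 24.6, 55.1 and 55.1 CPM in IRP, and rose 5.55-fold and 4.92-fold (adjusted p = 6.7e-05 and 9.6e-05). Cyba, the partner subunit p22phox, which also pairs with the oxidase NOX4 of tubule cells, ranged over 76.5 to 103 CPM in NV and 45.2 to 75.4 CPM in IRV, with every IRV library below every NV library. The difference of -0.47 ± 0.18 missed the threshold (adjusted p = 0.056), passed in 9 of 16 fits that each left out 1 library, and was 0.04 with library totals as the only scaling. In IRP against NP it was -0.36 ± 0.17 (adjusted p = 0.099), and 0.21 with totals only, so no direction is given for Cyba.

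The 4 genes shared by all leukocytes rose in both comparisons, with medians of 2.85 and 2.16. Laptm5, a lysosomal membrane protein of blood cells, had 13.7, 4.78, 5.4 and 6.95 CPM in NV and 58.6, 55.9, 96.98 and 72.4 CPM in IRV. It had 14.4, 17.1, 14.1 and 10.2 CPM in NP and 105, 45.8, 78.4 and 91.3 CPM in IRP, and rose 9.3-fold and 5.74-fold (adjusted p = 8.9e-06 and 2.2e-05). All injured libraries were above all uninjured ones. Cd52, a small surface glycoprotein, had 0, 1.91, 1.8 and 3.86 CPM in NV and 20.6, 21.3, 25.6 and 24.4 CPM in IRV. It had 3.84, 2.23, 2.17 and 2.34 CPM in NP and 28.6, 10.3, 20.9 and 22.5 CPM in IRP, and rose by 3.56 ± 0.45 and 2.96 ± 0.42. Lcp1, the actin-bundling protein L-plastin, had 31.6, 28.7, 25.2 and 39.4 CPM in NV and 101, 107, 143 and 109 CPM in IRV. It had 53.8, 33.5, 34.8 and 33.6 CPM in NP, with replicate 1 above the others, and 147, 63.6, 112 and 132 CPM in IRP, and rose by 1.88 ± 0.24 and 1.55 ± 0.24. Cd53, a tetraspanin, had 0.855, 4.78, 3.6 and 2.32 CPM in NV and 16.4, 15.2, 16.5 and 15.6 CPM in IRV. It had 4.8, 3.72, 2.17 and 3.9 CPM in NP and 18.6, 7.25, 11.3 and 14.2 CPM in IRP, and rose by 2.48 ± 0.39 and 1.79 ± 0.36. Laptm5 and Cd52 were called in IRP against NP with the library set in the fit, and Cd53 and Lcp1 were not (adjusted p = 0.086 and 0.063).

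The mean log2(CPM + 1) of the resident-type genes was 3.25 ± 0.21 in NV, 3.24 ± 0.25 in NP, 4.72 ± 0.11 in IRV and 4.55 ± 0.58 in IRP (SD, n = 4). That of the infiltrating monocyte-type genes was 3.06 ± 0.15, 2.99 ± 0.30, 4.84 ± 0.27 and 4.76 ± 0.58. That of the lipid-associated or repair-type genes was 3.37 ± 0.18, 3.33 ± 0.26, 4.88 ± 0.17 and 4.79 ± 0.46. In all 3 sets both injured groups were above both uninjured groups, and the means of IRV and IRP differed by less than the SD of IRP. The means include the genes that did not pass, and levels of different sets are not compared with each other because CPM is not scaled by gene length.

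**Figure D4:**
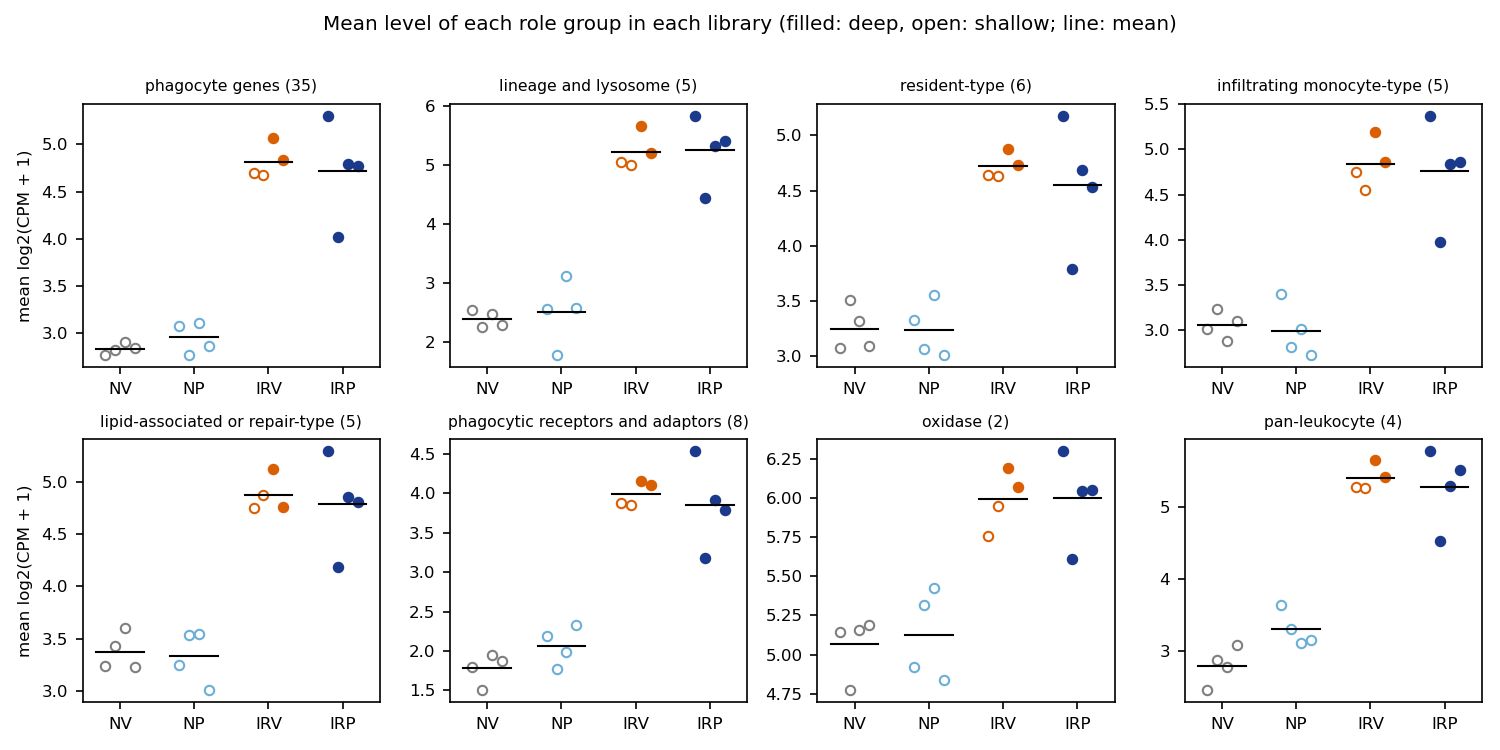
Mean log2(CPM + 1) over the genes of each role group in every library, 1 panel per role group and 1 for all 35 genes, with the 4 groups on the x axis; points are libraries (filled where deep, open where shallow) and the line is the group mean. Over all 35 genes the IRP points run from 4.01 in replicate 2 to 5.30 in replicate 1, and the highest NP point is at 3.11.

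PJ34 in the injured kidney gave no call. In IRP against IRV, edgeR called 0 of the 34 genes higher or lower, 0 had an unadjusted p under 0.05, the lowest adjusted p was 0.52, and DESeq2 called 0 of the 34. Over all genes edgeR called 0% in each direction. DESeq2 called 5 higher and 1277 lower (0.0367% and 9.38%). The median log2 difference was -0.04 over the 34 genes and 0.02 over all genes, and 16 of the 34 were above 0. None of the 34 had groups that did not overlap, against 1.51% of all genes higher and 1.92% lower. The values ran from -0.69 for Msr1 (95% interval -1.49 to 0.12) to 0.35 for Fcer1g (-0.34 to 1.04). The 5 lineage genes lay between 0.02 and 0.07, for instance Mpeg1 at 0.05 (-0.52 to 0.63) and Lyz2 at 0.07 (-0.61 to 0.74). Ccr2 was at -0.36 (-0.87 to 0.15), Csf1r at 0.03 (-0.42 to 0.48), Gpnmb at 0.27 (-0.49 to 1.02) and Cybb at -0.15 (-0.67 to 0.37). These intervals do not show that the groups were alike. They were wide for low genes, such as Cd300c2 (-1.61 to 0.70) and Cd163 (-1.52 to 0.56).

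The sign of that median changed with single libraries. IRP replicate 2 was the lowest IRP library for 30 of the 34 genes, and IRP replicate 1 the highest for 31. Without IRP replicate 2 the median of IRP against IRV was 0.14, without IRP replicate 1 it was -0.29, and without IRV replicate 3, the highest IRV library for 22 of the 34 genes, it was 0.09. The kidney tubule and glomerulus markers summed to 18758 CPM in IRP replicate 2, which is within the range of NV, to 8912 CPM in IRP replicate 1, and to 13057 and 12249 CPM in IRP replicates 3 and 4. The part of tissue make-up in the order of these libraries was not tested. Within the deep libraries, IRP against IRV replicates 3 and 4, the median was -0.16. With the set in the fit it was -0.15, with 7 of 34 genes above 0 and 0 called.

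**Figure D5:**
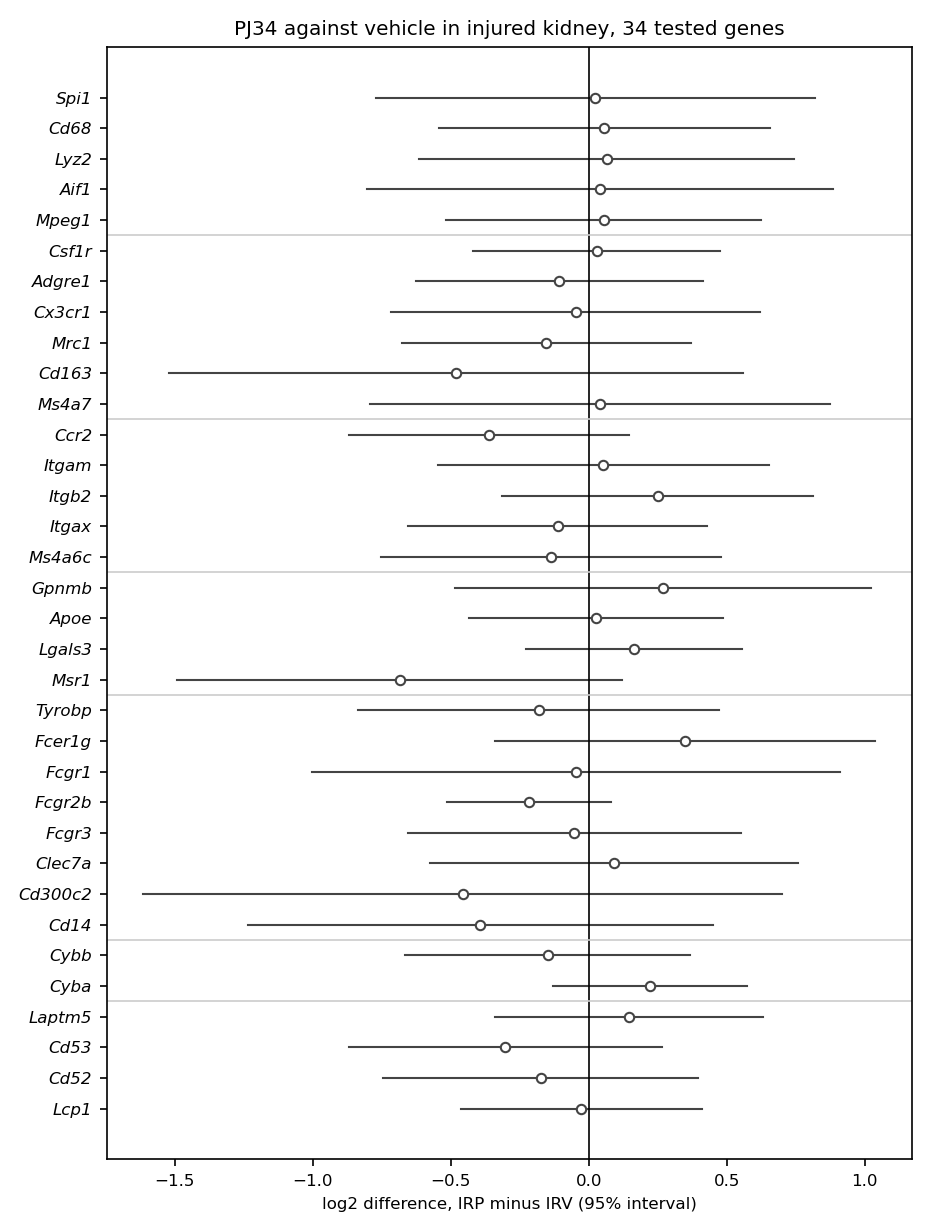
Log2 difference of the 34 tested genes in IRP against IRV, with 95% intervals from the edgeR fit, grouped by role. All 34 intervals include 0, with Msr1 the farthest to the left and Fcer1g the farthest to the right.

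In uninjured kidney PJ34 gave no call either. In NP against NV, 0 of the 34 genes were called by edgeR or by DESeq2 (of all genes 0% in edgeR, and 0.0220% higher and 0.00735% lower in DESeq2), 1 had an unadjusted p under 0.05, and the median was 0.19 against 0.01 over all genes. That gene was Fcgr3, at 3.84, 2.98, 5.44 and 3.9 CPM in NP against 0.855, 0, 1.8 and 2.32 CPM in NV, the 1 gene whose groups did not overlap (1.28% of all genes were higher without overlap). Its difference was 1.58 ± 0.67 (adjusted p = 1). Laptm5 had the next smallest p of the 34, at 0.84 ± 0.42 (adjusted p = 1). In the test of whether the response to injury differed with PJ34, 0 of the 34 were called by edgeR or DESeq2 (of all genes 0% in edgeR, and 0.00735% higher and 0.154% lower in DESeq2), and 1, again Fcgr3, had an unadjusted p under 0.05 (-1.64 ± 0.73, adjusted p = 0.41). The median of that difference of differences was -0.15 over the 34 genes and -0.01 over all genes.

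Other genes of phagocyte biology were read beside the 35, and their counts stand against 15.9% of all genes called higher and 11.1% lower in IRV against NV, and 19.6% and 24.0% in IRP against NP. Of the factors that draw or keep macrophages, 7 of 8 tested were higher in IRV than in NV and 7 of 8 in IRP than in NP. Among them, Csf1, the growth factor for CSF1R, went from 10.03 ± 2.73 to 29.9 ± 8.37 CPM under vehicle (1.62 ± 0.30) and from 8.05 ± 2.22 to 35.3 ± 11.3 CPM under PJ34 (2.16 ± 0.30). Cx3cl1, the ligand of CX3CR1, went from 53.4 ± 7.61 to 117.7 ± 14.3 CPM and from 49.0 ± 20.1 to 127.3 ± 26.1 CPM. All 3 genes of complement C1q, a product of macrophages, rose in both comparisons: C1qa by 3.51, C1qb by 3.01 and C1qc by 3.52 in IRV against NV, and by 2.99, 2.77 and 3.36 in IRP against NP. Of the receptors that bind dying cells, 7 of 11 tested rose under vehicle, and 7 rose and 1 fell under PJ34. The other 4 under vehicle and 3 under PJ34 were not called. The largest difference of this list under vehicle was that of Havcr1 (4.34, adjusted p = 4.4e-05), the tubule injury marker KIM-1. The part of tubule and other cells in the rise of these receptors was not tested. Axl, a receptor tyrosine kinase that recognises dying cells through GAS6 and PROS1, went from 18.3 ± 5.88 to 116.3 ± 25.7 CPM and from 23.4 ± 4.77 to 122.7 ± 40.6 CPM. Of the signalling genes downstream, 12 of 15 rose under vehicle and 13 of 15 under PJ34, with Rac2, the small GTPase of the oxidase, at 3.52 and 2.68. Lipid-handling genes were divided, with 8 higher and 3 lower of 15 under vehicle and 7 higher and 0 lower under PJ34. Of the myeloid transcription factors, 5 rose and 2 fell of 11 under vehicle, with Irf5 and Irf8 among those that rose, and 7 rose and 2 fell under PJ34, where the share that fell is no higher than that of all genes. Of 9 monocyte genes, 4 rose in both comparisons, while Ace fell under vehicle (-0.63, adjusted p = 0.049) and F13a1 under PJ34 (-1.22, adjusted p = 0.029). Ace stood at 242.6 ± 29.5 CPM in NV, where the other genes of that list had means of at most 15.8 CPM. The part of tubule cells in the fall of Ace was not tested. The difference of F13a1 is given without the library set in the fit.

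Markers of other blood cells were checked in the same libraries. Their counts stand against 15.9% of all genes called higher and 11.1% lower in IRV against NV, and 19.6% and 24.0% in IRP against NP. Of the 8 B and plasma cell markers 4 could be tested and 3 were higher in IRV than in NV; their sum was 20.5 to 36.01 CPM in NV, 19.2 to 29.8 in NP, 129 to 650 in IRV and 117 to 493 in IRP, with Cd79b and Mzb1 at 0 in NV and Cd79b at 0 in NP. Under PJ34, in IRP against NP, 3 of the 4 were higher, while Ms4a1, which encodes the B cell antigen CD20, was lower (-2.49, adjusted p = 0.011). Ms4a1 had 11.3 ± 1.94 CPM in NV, 9.95 ± 1.28 in NP, 7.35 ± 7.66 in IRV and 1.76 ± 0.91 in IRP. NP libraries were all shallow and IRP libraries all deep, while IRV held both kinds. Of 9 markers of dendritic cells, which also express Itgax, 2 of 6 tested were higher in IRV than in NV and 3 in IRP than in NP. Their sum was 23.9 to 30.9 CPM in NV, 18.6 to 29.8 in NP, 44.4 to 70.9 in IRV and 24.3 to 56.1 in IRP. Of 10 T and NK cell markers 1 of 2 tested was higher in each injury comparison, with sums of 10.8 to 16.99, 15.2 to 20.2, 23.6 to 36.2 and 21.4 to 43.6 CPM. Neutrophils also express Itgam, Itgb2, Cybb and Fcer1g. Of their 12 markers 11 were in the table and 3 could be tested; edgeR called 0 in IRV against NV (0 at an unadjusted p under 0.05), and their sum was 29.9 to 53.6 CPM in NV, 32.7 to 49.98 in NP, 6.91 to 41.3 in IRV and 5.07 to 12.3 in IRP. Elane was at 0 in IRV, and Elane and Ly6g in IRP. Among the shallow libraries the neutrophil sum was 39.1 and 41.3 CPM in IRV replicates 1 and 2, within the range of NV. In IRP against NP, Csf3r was higher (2.09 ± 0.68), and Cxcr2 and Ltf were lower (-3.26 ± 0.86 and -3.63 ± 0.72). Of 5 erythrocyte markers 4 could be tested; edgeR called 0 in IRV against NV (0 at an unadjusted p under 0.05), and 3 were lower in IRP against NP, among them the globin gene Hba-a1 (-1.27, adjusted p = 0.0032). Their sum was 100.4 to 187 CPM in NV, 134 to 384 in NP, 75.7 to 151 in IRV and 74.5 to 152 in IRP. The part of B, T and dendritic cells in the rise of the leukocyte genes was not tested. Differences of these markers in IRP against NP, such as those of Ms4a1, Cxcr2 and Ltf, are given without the library set in the fit. Those groups have no library set in common.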

How the data were processed

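Salmon's expected counts, as deposited by the authors, are whole numbers without normalisation, for 16 kidney libraries. The submitters' processing notes name Salmon 1.3.0, Trim Galore 0.6.6, DESeq2 1.30.1 and FastQC 0.11.3, with genome build GRCm39. Per the labels' protocols, a directional kit was used. Reads that fit several similar transcripts are divided by Salmon, which makes near copies uncertain. Libraries were grouped by their titles. The 35 genes, their role groups and the other lists were chosen with earlier results of these data known.

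Symbols were matched for 40276 Ensembl IDs. Genes were kept with filterByExpr of edgeR 4.0.16 (minimum count 10; R 4.3.3), TMM-scaled, and tested with the quasi-likelihood test in 1 fit of all 16 libraries with group as the term, over 5 comparisons. Adjusted p-values are Benjamini-Hochberg values over all 13614 genes tested, with a threshold of 0.05. SE is the log2 difference divided by the root of F, and intervals are at 95%. CPM uses TMM-scaled library sizes. Intervals on ratios of few counts are exact binomial ones. Total counts, 973812 to 6169748, limit the precision of genes near 0. Genes given in every library are the called members with the smallest p in IRV against NV, up to 4 per role group, and other lists name at most 4 genes by that p; Cd163, Trem2, Fcgr1, Ace, F13a1, Ms4a1 and Umod were added after their values were seen.

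Alternatives were DESeq2 1.42.0, other scalings and filters, the library set, a replicate block, and leaving out each library. No pair of libraries in a group agreed within sampling noise. The script was tested on simulated data. Protein sequences and coordinates on GRCm39 were not used here, and a list of other genes is not reported here.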

Additional observations from a re-analysis of the deposited data

Results flagged for a closer look

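In groups of 4, a library was singled out where its gap to the nearest other library took up more of the group's range than Dixon's critical value at 95% allows. This occurred in 11 of 136 checks of a gene in a group, where chance gives about 1 in 20. Of the uninjured groups, Aif1 in NV replicate 4 had 1.54 CPM, where the others had 0.855 to 0.956, and Mpeg1 in NV replicate 2 had 6.69 CPM, where the others had 9.90 to 10.3. Cd163 in NV replicate 3 had 11.7 CPM (others 6.95 to 7.69). Cd300c2 in NV replicate 4 had 0.772 CPM and Cd14 in NV replicate 3 had 1.80 CPM, with 0 in the other 3 libraries each. Cyba in NV replicate 2 had 76.5 CPM (others 98.8 to 103). In NP, Ms4a6c had 4.46 CPM in replicate 2 (others 10.9 to 12.0), Cd52 had 3.84 CPM in replicate 1 (others 2.17 to 2.34), and Lcp1 had 53.8 CPM in replicate 1 (others 33.5 to 34.8). Of the injured groups, Cyba in IRV replicate 1 had 45.2 CPM (others 72.0 to 75.4), and Fcgr2b in IRP replicate 1 had 63.9 CPM (others 40.7 to 44.6). Several of the NV values rest on 1 or 2 counts.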

How the results depend on the processing

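The count of phagocyte genes higher in IRV than in NV was 26 to 28 when each library was left out, and 22 to 29 over the other settings; in IRP against NP it was 27 to 28 and 27 to 31, except 11 with the library set as a covariate, where 16 of the 27 lost their call. The genes lower in IRV than in NV (0) became 1 with DESeq2's size factors, 1 with a group mean of 10 or more counts as the filter, 1 with the replicate block, 2 with DESeq2, and 0 to 2 with a library left out. Those lower in IRP than in NP (1) became 0 with the set as a covariate and 1 to 3 with a library left out. Direction turned for Msr1 in IRV against NV (-0.048 to 0.437 with a library left out) and in IRP against NP (0.096 with the set), for Fcgr2b in IRP against NP (-0.066 to 0.161 with a library left out), and for Cyba with totals only (0.041 in IRV against NV, 0.211 in IRP against NP) and with no filter (0.077 in IRP against NP). The cause was not tested. Totals-only scaling moved the median of all genes to 0.49 and 0.57 and that of the 34 genes to 3.00 and 2.78, and over all genes gave 5716 higher and 246 lower in IRV against NV and 7012 and 1778 in IRP against NP, against 2162 and 1511, and 2671 and 3264. Over all genes IRP against IRV gave 0 calls with edgeR, 9 higher and 1084 lower with no filter, and 1 and 421 with totals only. With the set as a covariate all-gene calls were 1080 and 835 in IRV against NV and 343 and 107 in IRP against NP; with no filter they were 3124 and 600, and 5805 and 10928.

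Replicate numbers are shared by the groups, and same-numbered libraries did not clearly deviate together (16 correlations of -0.23 to 0.26, 4 of them over 0.1). Weak correlations across libraries of unlike depth cannot exclude a pairing, so a fit with the replicate block is given too. With the replicate block 27 genes were higher and 1, Cyba (-0.51), lower in IRV against NV, and 27 and 1 in IRP against NP. In the interaction, in NP against NV and in IRP against IRV 0 of the genes were called under every setting run. Genes with 1 to 3 counts in an uninjured group, such as Cd14, Cd300c2 and Trem2, are limited by depth.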
